A study of Mus musculus with 4 samples.

Results

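The 10 genes described here encode cytokine receptor chains and the inhibitors that answer them: the interleukin receptor chains Il7r, Il4ra, Il2rg and Il6st, the interferon-gamma receptor chains Ifngr1 and Ifngr2, the TGF-beta receptors Tgfbr1 and Tgfbr2, and the suppressors of cytokine signalling Socs1 and Socs3. They were taken by symbol, and 10 of 10 were found among the 11536 genes of the authors' deposited comparison and the 43430 genes of the count table. RNA came from CD4+CD8+ double-positive (DP) thymocytes, sorted by flow cytometry from C57BL/6 mice. There were 2 knockout (KO) mice, with genotype Uqcrfs1fl/fl; CD4-Cre+, and 2 control mice, with 1 library per mouse. Where 4 values stand in a row, their order is WT 1, WT 2, KO 1, KO 2. The controls carry the genotype label WT but are heterozygous littermates in the series description, so "WT" is only the name of that group here. The sources used here do not say whether the controls carried the CD4-Cre transgene, nor the age or sex of the mice. CD4-Cre, driven by regulatory sequence of the Cd4 gene, is active from the DP stage on, so the KO cells were sorted at the stage at which the deletion takes place.

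Cytokine receptors of this kind have no kinase of their own, with the exception of the TGF-beta receptors, and signal through JAK kinases bound to their tails, which phosphorylate STAT transcription factors. STATs induce SOCS genes, whose products bind receptors and JAKs and shut the signal down. The IL-7 receptor alpha chain Il7r pairs with the common gamma chain Il2rg. It is needed for survival and growth of the preceding double-negative (DN) thymocytes, is switched off in DP cells, and returns after positive selection, so Il7r reads in a DP sort also bear on which other cells are in it. TGF-beta receptors are serine/threonine kinases that act through SMAD proteins and support the late steps of invariant natural killer T cell development.

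Libraries held 30408863 to 34080516 reads assigned to genes. Uqcrfs1, the targeted gene, measured 61.4 (WT 1), 57.2 (WT 2), 15.6 (KO 1) and 18.6 CPM (KO 2). CPM here is a count scaled by library size with TMM factors. The log2 change was -1.80 (SE 0.09, adjusted p = 0.000178 in edgeR's quasi-likelihood test). All 12 DP markers examined were detected in every library, with summed levels of 18338 to 19604 CPM. DN transcripts were present too: 9 of the 10 DN markers had a count in at least 1 library. All 7 that could be tested were higher in KO, with a median log2 change of 0.47, where 6633 of 13281 tested genes were higher. Their log2 changes ran from 0.03 (Kit and Lyl1) to 1.17 (Hes1, SE 1.20). In edgeR's quasi-likelihood test 3 of the 7 had an unadjusted p under 0.05, beside 4.40% of all tested genes in that direction. After adjustment 0 passed. The most abundant DN marker, Notch3, measured 65.9, 65.1, 82.5 and 98.4 CPM. KO replicate 2 stood apart in markers of other cells. Its sum over the 10 myeloid markers that lay under 5 CPM in WT was 15.3 CPM, against 1.81 to 2.62 CPM in the other 3 libraries, and S100a8 and S100a9 had reads in that library alone.

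The 10 genes lay at very different levels in DP cells, with Ifngr1 the highest and Il7r the lowest in each library. Per kilobase of exon, Ifngr1 had a mean over the 4 libraries of 207 CPM per kb (range 195 to 219). Socs1 and Il2rg followed at 116 (106 to 125) and 112 CPM per kb (110.5 to 115). Their ranges overlapped, and each of them was the higher in 2 libraries: Socs1 in both WT libraries and Il2rg in both KO libraries. Il4ra lay at 41.3 (39.6 to 42.6) and Il6st at 27.4 CPM per kb (26.3 to 28.8). Ifngr2, Tgfbr1 and Tgfbr2 formed a group of neighbours whose ranges overlapped, at 15.9, 15.1 and 14.1 CPM per kb. Socs3 was at 12.0 (10.1 to 13.0) and Il7r at 1.39 CPM per kb (0.763 to 2.25). Ifngr1 was above 99.1% of tested genes by this measure, Socs1 above 97.8%, Il2rg above 97.7% and Il7r above 23.7%. Lengths were exon bases of the GENCODE annotation inside the deposited gene bounds. With all annotated exons Socs1 came to 53.4 CPM per kb, below Il2rg, Tgfbr2 to 8.26, below Socs3, and Ifngr2 ranked below Tgfbr1, which stayed at 15.1, so these places in the order depend on the gene model.

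**Figure D1:**
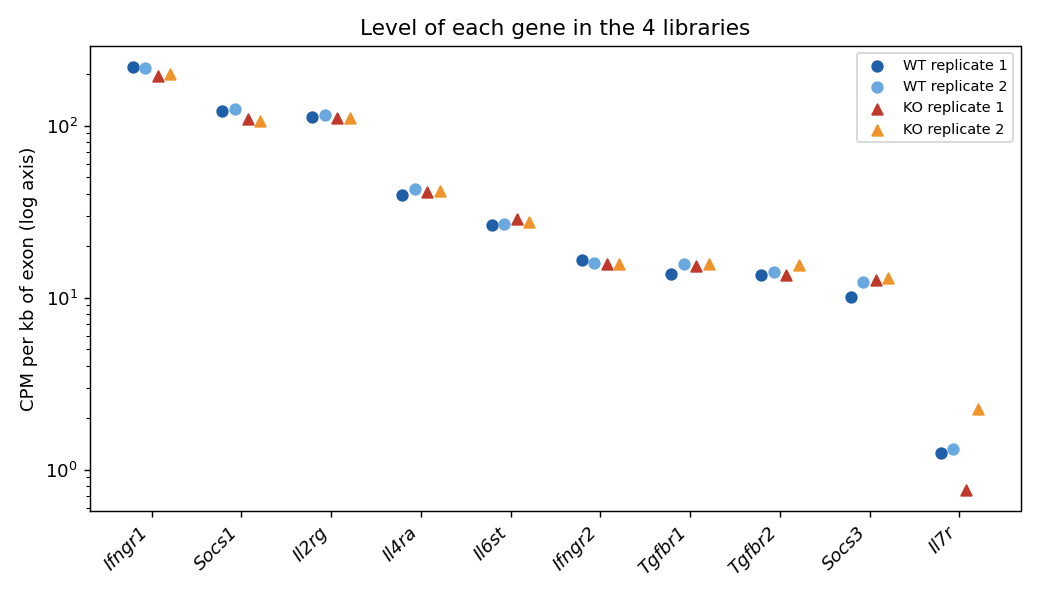
Level of each gene in each library, in CPM per kb of exon on a log axis, ordered by the mean over the 4 libraries; circles are WT and triangles KO. Libraries lie close together for each gene except Il7r, which runs from 0.763 in KO replicate 1 to 2.25 in KO replicate 2.

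Between genotypes, none of the 10 genes changed by the adjusted test, and differences were small except for the scatter of Il7r. In edgeR's quasi-likelihood test 0 of 10 passed at an adjusted threshold of 0.05, against 0.0226% of the 13281 genes tested (0.00753% higher and 0.0151% lower in KO). DESeq2 called 0 of the 10 (0.181% of genes), and edgeR's likelihood ratio test also 0 (0.760%). At an unadjusted p under 0.05 there were 2, Socs1 and Ifngr1, both lower in KO. The background was 8.40% of tested genes, 4.01% lower and 4.40% higher. The authors' deposited table marks 0 of the 10 and 0.399% of its genes. It has unadjusted p-values under 0.05 for Socs1, Ifngr1 and Socs3, and for 7.98% of its genes. KO and WT libraries did not overlap for 6 of the 10 genes, against 40.5% of tested genes. KO was lower in 4 of them (Il2rg, Ifngr1, Ifngr2 and Socs1; background 20.1%) and higher in 2 (Il6st and Socs3; background 20.4%). The median log2 change over the 10 was 0.04, and it was 0.00 over all tested genes.

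**Figure D2:**
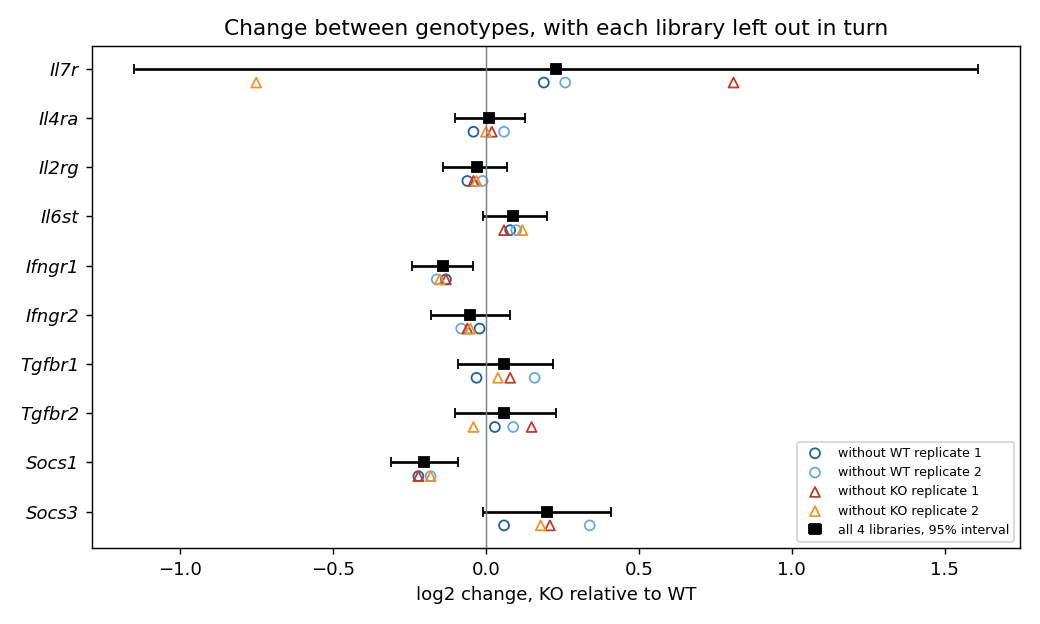
Log2 change of KO relative to WT for each gene: squares with bars give the estimate from 4 libraries and its 95% interval, open symbols the estimate with 1 library left out. Il7r has the widest interval, -1.15 to 1.61, and its left-out values lie on both sides of 0, while those of Socs1 and Ifngr1 stay below 0.

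Il7r, the alpha chain of the IL-7 receptor, was the gene of the 10 with the largest fold between KO replicates and showed no common direction in KO. The gene (ENSMUSG00000003882) spans 9506161 to 9529876 of chromosome 15 (mm10, minus strand). It had 171 (WT 1), 165 (WT 2), 108 (KO 1) and 297 counts (KO 2). In CPM these are 5.21, 5.43, 3.17 and 9.36, with exact Poisson 95% intervals for counting error of 4.46 to 6.05, 4.64 to 6.33, 2.60 to 3.83 and 8.33 to 10.5. The WT libraries thus agree within counting error, whereas KO replicate 1 lies below both and KO replicate 2 above both. The fold between the KO libraries was 2.95, and 1.17% of tested genes differed by as much or more between them. Between the WT libraries the fold was 1.04. Averages of 5.32 ± 0.159 for WT and 6.27 ± 4.38 CPM for KO (SD, n = 2 each) gave a log2 change of 0.23 (SE 0.52, adjusted p = 0.924 in edgeR's quasi-likelihood test). Without KO replicate 2 the change was -0.75 (adjusted p = 0.488), and without KO replicate 1 it was 0.81 (adjusted p = 0.105).
Genes of mature T cells, which carry the IL-7 receptor again, ran partly alongside. Of the 9 tested markers of that list, 4 (Ccr7, Klf2, Zbtb7b and Gimap3) were also lowest in KO replicate 1 and highest in KO replicate 2, a pattern that 5.56% of tested genes had. Ccr7, the chemokine receptor of cells moving to the medulla, was at 10.3 CPM in WT 1, 8.98 CPM in KO 1 and 15.8 CPM in KO 2, with WT 2 between the first of these and KO 1. Zbtb7b, the CD4 lineage factor, was at 2.25, 2.07, 1.41 and 6.90 CPM in that order. The 5 markers of the list under 5 CPM in WT summed to 3.66, 2.80, 2.26 and 10.7 CPM. The full list of 12 summed to 288, 282, 296 and 319.8 CPM. DN markers, the list of the earlier cells that carry the receptor, summed to 98.9, 101, 129.8 and 167 CPM, with both KO libraries above both WT libraries. The 6 of them under 5 CPM in WT summed to 3.90, 4.31, 3.61 and 5.04 CPM, lowest in KO 1 and highest in KO 2 as Il7r was. Of the 7 tested DN markers, only 1, Kit, had that order by itself. The 7 B cell markers under 5 CPM in WT summed to 3.63, 5.53, 3.26 and 10.7 CPM, and the 8 NKT effector markers, all under 5 CPM, to 5.27, 4.22, 3.40 and 9.27 CPM. Both sums have that order as well, but few of the single tested markers had it. In the B cell list it was 1 of 5, Igkc, at 1.86, 4.05, 0.909 and 7.31 CPM. In the NKT effector list it was 1 of 4, Il2rb, while Tbx21, Klrb1c and Klrd1 were highest in WT 1 and Zbtb16 in WT 2. Myeloid markers were high in KO replicate 2 as given above. The part of these cells in the Il7r values was not tested, and in bulk RNA fewer cells of a type and less RNA per cell cannot be told apart.

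**Figure D3:**
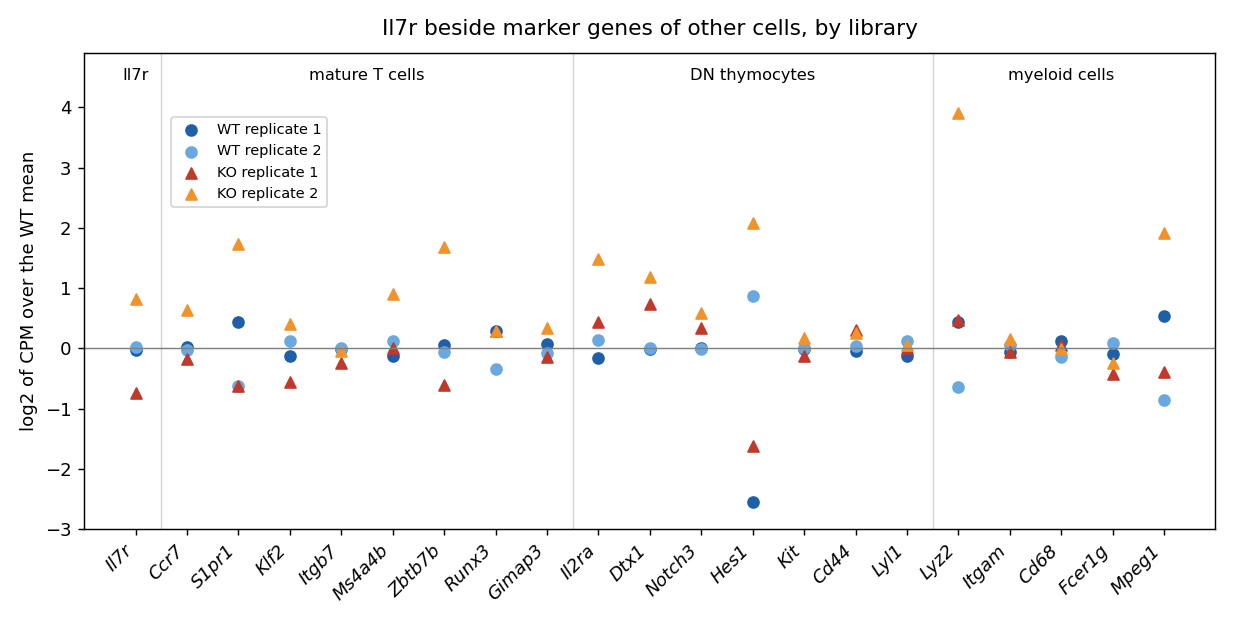
Log2 ratio of each library's CPM to the WT mean for Il7r and for tested markers of mature T cells, DN thymocytes and myeloid cells; circles are WT and triangles KO. KO replicate 2 is the highest library for Il7r and, among other markers, for Ccr7, S1pr1, Zbtb7b, Lyz2 and Mpeg1. KO replicate 1 is the lowest for Il7r, Ccr7 and Zbtb7b, among others. Other markers differ: Itgb7, Lyl1 and Fcer1g are highest in WT replicate 2, Cd68 in WT replicate 1, and Runx3 and Cd44 in KO replicate 1.

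The stretch upstream of Il7r is shown because transcription of this gene separates DP cells from their neighbours in development. It covers chr15:9529877-9530040 (GRCm38.p6, minus strand, from RefSeq), the 164 bases before the annotated start, written 5′ to 3′. Capitals mark the only match to TTCNNNGAA, the palindrome bound by many STAT dimers, which lies 142 to 134 bases before the start.
Il7r: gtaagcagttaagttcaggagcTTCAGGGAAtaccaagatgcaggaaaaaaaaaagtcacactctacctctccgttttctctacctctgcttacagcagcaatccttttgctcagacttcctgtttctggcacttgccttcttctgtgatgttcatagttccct
The motif is its own reverse complement, and 7.01% of 32817 annotated mouse promoters hold it in the 250 bases before the start. The Il7r window of 250 bases has 1 CG dinucleotide, that of Il2rg has 3, and those of the other 8 genes have 11 to 29 at their first listed start, against a median of 6 over all promoters (lower and upper quartile 2 and 16). A match is a stretch of letters and not a measured binding site.

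Regulators of Il7r were measured in the same cells. None of the 9 in the list passed a threshold of 0.05 in edgeR's quasi-likelihood test, adjusted or not, and 7 were higher and 2 lower, with a median log2 change of 0.01. DESeq2 called 0 of them. Gfi1, a repressor of Il7r, was at 199.9, 192, 201 and 194 CPM. Foxo1, which activates the gene in mature T cells, was at 56.1, 62.1, 62.8 and 69.9 CPM, with KO above WT (log2 change 0.17, SE 0.07, adjusted p = 0.598). Ets1 was at 1800, 1810.3, 1724 and 1768 CPM. Runx3 was at 8.38, 5.43, 8.42 and 8.38 CPM, where WT replicate 2 is the low library.

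Il2rg and Il4ra, partners in the IL-4 receptor, were abundant and nearly level. Il2rg (ENSMUSG00000031304, chromosome X, 101264378 to 101268255, minus strand) encodes the gamma chain shared by the receptors for IL-2, IL-4, IL-7, IL-9, IL-15 and IL-21. It measured 267 (WT 1), 275 (WT 2), 266 (KO 1) and 264 CPM (KO 2). The groups do not overlap, but by a margin smaller than the gap between the WT libraries (log2 change -0.03, SE 0.05, 95% interval -0.14 to 0.07, adjusted p = 0.874). Gm20489, a gene on the same strand, shares 728 exon bases with it and had 0 to 4 counts, and how reads in the shared part were counted is uncertain. Il4ra (ENSMUSG00000030748, chromosome 7, 125552282 to 125579472, plus strand), the ligand-binding chain, measured 231 (WT 1), 249 (WT 2), 240.4 (KO 1) and 245 CPM (KO 2). The KO libraries lie inside the WT range, with a log2 change of 0.01 (95% interval -0.10 to 0.13, adjusted p = 0.952). The antisense gene Gm44876 shares 571 exon bases with Il4ra, and reads of the pair cannot be told apart without a strand setting.

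Il6st, which encodes gp130, the chain that passes on the signal of IL-6 and related cytokines, was higher in both KO libraries by a few percent. It lies on chromosome 13 from 112464070 to 112510086 (ENSMUSG00000021756, plus strand). It measured 292 (WT 1), 297 (WT 2), 319.9 (KO 1) and 308 CPM (KO 2). Means of 295 ± 3.05 and 314 ± 8.39 CPM (SD, n = 2 each) differ by 6.59%, a log2 change of 0.09 (SE 0.05, adjusted p = 0.633 in edgeR's quasi-likelihood test). Its IL-6-binding partner Il6ra was low, at 0.366, 0.461, 0.440 and 1.23 CPM, highest in KO replicate 2.

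Among the interferon-gamma receptor chains, Ifngr1 was lower in both KO libraries. Ifngr1 (ENSMUSG00000020009, chromosome 10, 19591949 to 19610229, plus strand) encodes the ligand-binding chain. It measured 624 (WT 1), 614 (WT 2), 556 (KO 1) and 567 CPM (KO 2). Averages were 619 ± 7.25 and 562 ± 7.34 CPM (SD, n = 2 each), so the gap between groups is several times the spread within them. The log2 change was -0.14 (SE 0.05, 95% interval -0.24 to -0.04) and did not pass over all genes (adjusted p = 0.526). It lay between -0.16 and -0.13 with any 1 library left out. Ifngr2 (ENSMUSG00000022965, chromosome 16, 91547072 to 91565169, plus strand), the signalling partner, measured 54.7 (WT 1), 52.6 (WT 2), 52.0 (KO 1) and 51.7 CPM (KO 2). The groups do not overlap there either, at a log2 change of -0.05 (95% interval -0.18 to 0.08, adjusted p = 0.830).
The type I interferon receptor chain Ifnar1 was at 172, 184, 193 and 185 CPM and Ifnar2 at 58.9, 51.0, 58.5 and 51.6 CPM. In the list of other class II chains 0 of 5 tested genes passed an adjusted or unadjusted p of 0.05 in the same test, with 3 higher and 2 lower. DESeq2 called 0.

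The libraries of both genotypes overlapped for each TGF-beta receptor. Tgfbr1 (ENSMUSG00000007613, chromosome 4, 47353222 to 47414931, plus strand), the type I receptor that phosphorylates SMADs, measured 89.7 (WT 1), 103 (WT 2), 99.0 (KO 1) and 102 CPM (KO 2). Both KO values lie between the WT values (log2 change 0.06, 95% interval -0.09 to 0.22, adjusted p = 0.812). Tgfbr2 (ENSMUSG00000032440, chromosome 9, 116087698 to 116175363, minus strand), the ligand-binding type II receptor, measured 64.7 (WT 1), 67.6 (WT 2), 64.5 (KO 1) and 73.7 CPM (KO 2). KO replicate 2 is the high library, and the groups overlap (log2 change 0.06, 95% interval -0.10 to 0.23, adjusted p = 0.823). Tgfbr2 shares with Il7r the lowest value in KO replicate 1 and the highest in KO replicate 2, at a fold of 1.14 between them. Unlike Il7r, its KO replicate 1 lies within counting error of WT replicate 1 (95% counting intervals 61.9 to 67.3 and 62.0 to 67.5 CPM).
Of the wider TGF-beta list, 0 of 17 tested genes passed the adjusted test and 2 had an unadjusted p under 0.05, both higher in KO, beside 8.40% of all tested genes (4.40% higher). These were Smad5, at 154, 165, 179 and 182 CPM, and Smurf1, a ubiquitin ligase that targets SMADs and receptors, at 50.7, 54.4, 59.6 and 62.2 CPM. Their log2 changes were 0.18 (SE 0.05) and 0.21 (SE 0.06), both with adjusted p = 0.508, and DESeq2 called 0 of the list. The list had 15 genes higher and 2 lower, with a median of 0.09, where 6633 of 13281 tested genes were higher. Without KO replicate 2 the number higher was 7 of the 17, and without WT replicate 1 it was 10. Smad4, the shared partner of receptor SMADs, was at 106, 108, 104 and 112 CPM and the repressor Ski at 128, 124, 126 and 127 CPM.

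Socs1 and Socs3 lay on opposite sides of the controls. Socs1 (ENSMUSG00000038037, chromosome 16, 10783808 to 10785536, minus strand) restrains JAKs and keeps thymocytes from answering common gamma chain cytokines and interferon-gamma. It measured 164 (WT 1), 168 (WT 2), 147 (KO 1) and 142 CPM (KO 2). With means of 166 ± 3.0 and 145 ± 3.04 CPM (SD, n = 2 each), KO was 12.7% below WT, and both KO libraries were below both WT libraries. The log2 change was -0.20 (SE 0.05, 95% interval -0.31 to -0.09, adjusted p = 0.443), and -0.22 to -0.18 with 1 library left out. Its adjusted p was 0.0496 when no filter on low counts was applied, 0.425 in DESeq2, and up to 1 over its alternatives.
Socs3 (ENSMUSG00000053113, chromosome 11, 117966079 to 117970047, minus strand), the inhibitor that binds gp130, measured 29.3 (WT 1), 35.6 (WT 2), 36.7 (KO 1) and 37.6 CPM (KO 2). WT replicate 1 is the low library, and WT replicate 2 lies close to the KO values. Means of 32.4 ± 4.47 and 37.2 ± 0.641 CPM (SD, n = 2 each) gave a log2 change of 0.20 (SE 0.09, adjusted p = 0.618). The change was 0.06 without WT replicate 1 (adjusted p = 0.888) and 0.34 without WT replicate 2 (adjusted p = 0.0445, the lowest of its alternatives).

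Sequences upstream of both SOCS genes are shown because these genes are textbook targets of the receptors described. They come from RefSeq (GRCm38.p6, minus strand, 5′ to 3′): the 250 bases before the start of Socs1, chr16:10785537-10785786, and 165 exon-free bases upstream of Socs3, chr11:117969452-117969616. The Socs3 stretch runs from 250 to 86 bases before the start, and the bases nearest to the start are not printed. Capitals mark, in Socs1, GAAA followed after any 2 bases by GAAA, a core bound by interferon regulatory factors and searched on both strands, and in Socs3 TTCNNNGAA. The Socs3 start lies inside the deposited bounds of that gene.
Socs1: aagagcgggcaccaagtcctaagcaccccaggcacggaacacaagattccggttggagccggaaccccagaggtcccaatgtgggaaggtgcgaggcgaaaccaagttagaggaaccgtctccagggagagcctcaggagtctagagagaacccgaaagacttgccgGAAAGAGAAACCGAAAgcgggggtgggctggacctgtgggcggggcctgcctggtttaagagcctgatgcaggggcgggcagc
Socs3: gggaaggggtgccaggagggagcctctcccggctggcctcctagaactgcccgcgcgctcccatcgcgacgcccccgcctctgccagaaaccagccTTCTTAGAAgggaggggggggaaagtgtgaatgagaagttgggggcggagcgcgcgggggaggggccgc
Socs1 has 2 overlapping matches to the paired GAAA motif, 83 to 74 and 77 to 68 bases before its start, and 2.97% of all promoters hold at least 1. In Socs3 the TTCNNNGAA match lies 154 to 146 bases before the start. No other of the 10 genes has the paired GAAA motif in its window of 250 bases. TTC and GAA with 4 bases between them, also a STAT motif and a palindrome, were found in 5.85% of promoters and among the 10 genes in Ifngr2 alone.

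The JAK kinase and STAT genes downstream of these receptors were all expressed. Of 11 JAK and STAT genes, 0 passed at a threshold of 0.05, adjusted or not, in edgeR's quasi-likelihood test or an adjusted p in DESeq2, with 4 higher, 7 lower and a median of -0.04. Stat5b, which carries the IL-7 signal, was the most abundant per kilobase at 103 CPM per kb, followed by the kinase gene Jak1 at 81.9 and Stat6, the STAT of IL-4, at 53.3 CPM per kb. In CPM, Stat5b was at 576, 584, 576 and 554, and Stat6 at 234, 235, 234 and 235. Stat2 was at 130, 131, 140.5 and 139 CPM.
Among 13 tested genes of other SOCS and JAK-STAT inhibitors, 0 passed at an adjusted or unadjusted p of 0.05 (DESeq2 0), with 7 higher and 6 lower. Socs4 was at 109.5, 124, 129 and 129 CPM and Socs7 at 74.2, 78.3, 78.7 and 84.2 CPM, with WT replicate 1 lowest, as for Socs3. The phosphatase gene Ptpn6 was at 309, 285, 286 and 299.8 CPM. Socs2 had 0 to 3 counts per library. Cish, a STAT5 target named here after its values were seen, was at 0.883, 0.790, 0.733 and 1.95 CPM (29, 24, 25 and 62 counts). KO replicate 2 is above KO replicate 1, as for Il7r. The counting interval of KO replicate 1 overlaps those of both WT libraries, so only KO replicate 2 stands apart.
Cytokine-responsive genes gave 0 of 12 at either threshold (DESeq2 0), with 7 higher and 5 lower. Bcl2, a survival gene induced by IL-7, was at 24.2, 25.7, 26.3 and 31.9 CPM, and Gata3 at 92.4, 92.8, 85.2 and 86.1 CPM. Pim1 was at 124, 122, 122 and 117 CPM, and Mcl1 at 439, 469.9, 468 and 453 CPM.

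Further receptor chains of the class I family were present at a wide range of levels. Of 13 tested, 0 passed the adjusted test (DESeq2 0) and 1, Crlf2, had an unadjusted p under 0.05 (8.40% of all tested genes). Crlf2, the chain that pairs with Il7r to form the receptor for TSLP, was at 19.2, 17.8, 15.6 and 14.3 CPM, lower in both KO libraries (log2 change -0.31, SE 0.10, adjusted p = 0.520). Il21r was the most abundant at 247, 260.4, 255 and 258 CPM. Il27ra was at 69.2, 69.0, 66.6 and 68.2 CPM and Il12rb1 at 63.4, 64.4, 60.8 and 55.0 CPM. Il2ra, the alpha chain of the IL-2 receptor and a DN marker, was at 8.50, 10.5, 12.9 and 26.4 CPM, with both KO libraries above both WT libraries (log2 change 1.05, SE 0.40, adjusted p = 0.615). It was called with the replicate number as a block and without KO replicate 1, but not in the other alternatives.
Ligands for these receptors were rare in the sorted cells, with the exception of Tgfb1. Tgfb1 was at 127, 114, 111 and 116 CPM, Osm at 2.95, 3.16, 3.11 and 2.93 CPM, and Tgfb3 at 1.65, 1.48, 0.851 and 1.13 CPM, with KO below WT for Tgfb3 (log2 change -0.66, SE 0.31, adjusted p = 0.618). Il7, Il4, Il13, Il9, Il6 and Ifng had 0 counts in every library, which allows up to 0.0880 to 0.0988 CPM per library (3 counts). In all, 3 of 16 ligand genes had enough reads to be tested, and 0 passed at either threshold (DESeq2 0).

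**Figure D4:**
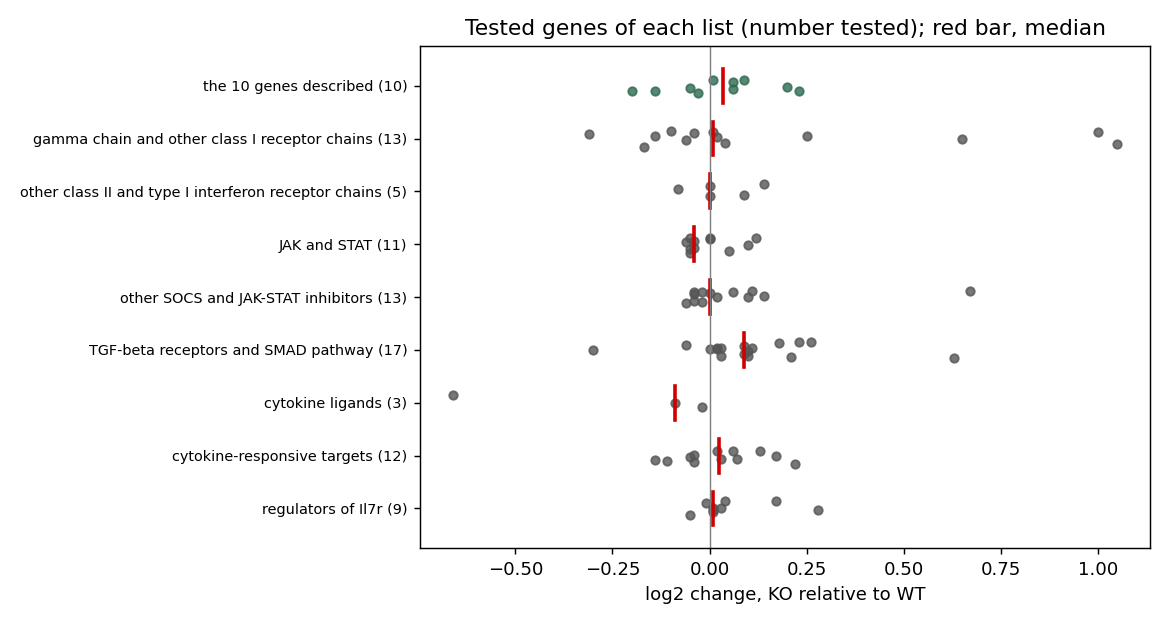
Log2 change of KO relative to WT for the tested genes of each list, 1 point per gene, with the median as a red bar and the number tested in brackets. Medians lie between -0.09 and 0.09, and the points beyond 0.5 on either side are Il2ra, Il2rb, Il6ra, Cish, Smad7 and Tgfb3.

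Over the 8 lists together, 0 of 83 tested genes passed the adjusted test in edgeR, 3 had an unadjusted p under 0.05 (2 higher and 1 lower, where 8.40% of all tested genes had one, 4.40% higher and 4.01% lower), and DESeq2 and the likelihood ratio test called 0. KO and WT did not overlap for 32 of the 83 genes, which is near the background of 40.5%.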

How the data were processed

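The files hold counts of 2 WT and 2 KO libraries, grouped and numbered by the sample titles. Trimmomatic 0.33, STAR 2.5.2 (mm10), HTSeq and edgeR made the deposited values, per the submitters' processing notes. The sources used here give no counting mode, strand setting or annotation release, which leaves reads of overlapping or antisense genes uncertain. Deposited counts came per library and as 1 series table, with 0 differing cells among 43430 genes. HTSeq's lines without a gene name were left out (17.2% to 20.6% of uniquely aligned reads without a feature). The authors' table gives CPM (count over library total), log2 fold changes and mean log2 CPM. It also holds the authors' p-values, a likelihood ratio score per the file headers, and marks of higher and lower genes.

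The test was the quasi-likelihood F test of edgeR (version 4.0.16, under R 4.3.3) over all genes passing filterByExpr (minimum count 10, minimum total 15), with TMM factors, a robust fit, genotype as its single term and Benjamini-Hochberg adjustment at 0.05. It was tested on simulated data. Standard errors are the log2 change over the square root of F, and intervals use the fit's degrees of freedom. Counting intervals (95%) and the floor of 3 counts cover counting error only. DESeq2 1.42.0 and other settings were alternatives. Bounds of genes are the deposited ones. GENCODE M21 gave symbols for 42462 identifiers, and 33483 of these have bounds equal to the deposited ones.

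The members and lists were chosen with earlier results of these data known. Named genes were the members, the 3 most abundant per kilobase and the 2 of smallest p in each list, the 2 most abundant of each marker list, and markers of lists that stood apart in 1 library. The paired GAAA motif and genes outside that rule (Il6ra, Il2ra, Socs2) were added after values were seen. Values of some genes of the lists are not reported here. Markers of B cells, stromal and erythroid cells were also summed in full: 30.9, 29.7, 30.5 and 35.4, 152, 157, 145 and 145, and 83.7, 80.2, 88.6 and 91.0 CPM.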

Additional observations from a re-analysis of the deposited data

How the results depend on the processing

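The count of 0 called members was kept with edgeR's RLE factors, library totals, a filter of 1 CPM in 2 libraries, DESeq2, the likelihood ratio test and the replicate block, and became 1 with no filter (Socs1). Over left-out libraries it was 0 to 1 (Socs3 without WT replicate 2). Leaving out a library leaves 1 sample in a group, which is assumed to vary like the others. Of 110 values of single members under alternatives, 4 changed sign, each with 1 library left out: Il7r (-0.75 to 0.81; -0.75 without KO replicate 2), Il4ra (-0.04 to 0.06) and Tgfbr1 (-0.03 to 0.16), both negative without WT replicate 1, and Tgfbr2 (-0.04 to 0.15), negative without KO replicate 2. The count of called genes in the pathway lists was 0 and became 1 with the replicate block (Il2ra) and 0 to 3 over left-out libraries (3 without WT replicate 2, Smad5 and Socs4 among them). Over all genes it was 3, and 191 with no filter, 24 with DESeq2, 101 with the likelihood ratio test, 27 with the replicate block and 41 to 365 over left-out libraries (365 without WT replicate 2); the cause was not tested. Deviations of same-numbered libraries of the 2 groups from their group means correlated at 0.07 across genes. This value cannot show whether the mice were paired. The replicate block moved the log2 change of Il7r to 0.09. The number of list genes higher in KO was recomputed without each library after seeing the data. With 2 mice per group, intervals of Il7r allow changes of either sign, and depth limits the ligand genes and Socs2.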

Other observations

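The 3 genes whose pattern over the 4 libraries was nearest to that of Il7r, among 10489 compared by the root mean square distance of centred log2 CPM, were Dynlt1b (0.116), Atcay (0.137) and Hs3st3b1 (0.169). All 3 are low in DP cells. Dynlt1b, a dynein light chain gene with near-identical copies, so that its counts are uncertain, was at 1.65, 1.98, 1.17 and 2.90 CPM. Atcay was at 1.43, 1.35, 0.733 and 1.99 CPM and Hs3st3b1 at 1.16, 1.42, 0.968 and 2.27 CPM. With 4 libraries this likeness is a description only.

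Smad7, the feedback inhibitor of TGF-beta signalling, was named after its values were seen. It was at 0.883, 0.725, 0.411 and 2.11 CPM in the same order. With Acvr1, Smad1 and Smad4 it is 1 of 4 genes, of 17 tested in the TGF-beta list, that were lowest in KO replicate 1 and highest in KO replicate 2. Over all tested genes 5.56% had this order. For each of the 4 genes the counting interval of KO replicate 1 overlapped those of both WT libraries. Tgfbr3, the co-receptor betaglycan, was at 31.3, 36.5, 35.1 and 45.9 CPM, also highest in KO replicate 2.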
